A study of Mus musculus with 18 samples.

Results

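The PI3K, AKT and mTOR signalling genes described here are 30 genes named by symbol: the insulin receptor substrates IRS1 and IRS2, the catalytic and regulatory subunits of PI3K, the kinases PDPK1, AKT1, AKT2, GSK3B and SGK1, the TSC genes and RHEB, the components of the mTOR complexes, and the S6 kinase, 4E-BP and FOXO effectors. All 30 were present among the 23626 gene entries used, and 23 of them were among the 7825 genes that passed the filter on low values. RNA was measured by sequencing in 18 libraries of mouse thyroid cells sorted for a yellow fluorescent protein (YFP), all taken at 20 weeks. Tumours with BrafV600E, which leaves the kinase Braf constantly active, gave 15 of the libraries: 4 with no added Tert allele (Braf tumours), 7 that had Tert-123C>T, a change in the promoter of Tert (Tert-123 tumours), and 4 with K5-Tert (K5-Tert tumours), a transgene that expresses Tert, the catalytic subunit of telomerase, from a keratin 5 promoter, which is not a promoter particular to thyroid cells. The 3 remaining libraries lacked the Braf mutation, and each was 1 pool of mice of K5-Tert, Tert-123C>T or wild-type genotype, with the number of mice in a pool, the driver of YFP and the sex of the mice not given in the labels. The labels describe every mouse as naive, and do not say whether the tumours came from separate mice, so p-values measure the spread between these libraries.

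PI3K is a lipid kinase made of a catalytic and a regulatory subunit. It is recruited by activated receptors, often through IRS adaptors, and its lipid product brings PDPK1 and AKT to the membrane, where AKT is phosphorylated. AKT restrains the TSC complex, GSK3B and the FOXO transcription factors, and with TSC restrained the small GTPase RHEB turns on mTOR complex 1, which acts on protein synthesis through S6 kinases and 4E-BPs. In thyroid cells the pathway carries insulin and IGF1 signals alongside thyrotropin, and lesions that activate it accompany BRAF mutation in advanced human thyroid cancers. Its activity is set mainly by phosphorylation, which transcript levels do not measure.

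Levels are in TPM, a transcript abundance corrected for transcript length and scaled to a fixed total, which is the unit the deposited values were taken to have. Differences are on the log2(TPM + 1) scale, and a gene was called when limma's p, adjusted over all 7825 genes tested, was under 0.05. Read depth is unknown. TERT was between 11.2 and 73.8 TPM in the K5-Tert tumours, between 3.78 and 5.12 TPM in the Braf tumours and between 2.65 and 6.23 TPM in the Tert-123 tumours. The K5-Tert values were all above the other tumours, and the Tert-123 and Braf ranges overlapped, with medians of 5.88 and 4.72 TPM. The K5-Tert, Tert-123 and wild-type pools held 125, 8.79 and 2.15 TPM. The K5-Tert tumours 2, 3 and 4 stood apart: MALAT1, a nuclear noncoding RNA, was 1191, 1908 and 1050 TPM in them against 5072 to 8420 TPM in the other 12 tumours. XIST, the RNA of the silenced X chromosome, was at 10 TPM or more in all 4 Braf tumours, 4 of 7 Tert-123 tumours and 1 of 4 K5-Tert tumours, and at 1.29, 10.9 and 43.2 TPM in the K5-Tert, Tert-123 and wild-type pools. The thyrocyte markers, 11 genes such as TG, summed to 571 to 1854 TPM in the tumours and to 26840 to 33360 TPM in the pools.

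The RefSeq promoter windows of the mouse build GRCm38.p6 covered 27 of the 30 genes with 43 windows, read here over the 250 bases before each start, on both strands. 2 windows are shown because SGK1 and IRS2 were among the genes that were lower with the Braf mutation and because these windows held matches searched for. Capitals mark CACGTG, the E-box that TFEB and MYC family factors bind, and in SGK1 also the glucocorticoid response element, which was searched as GNACA and TGTNC with any 3 bases between them. The SGK1 window shown lies at chr10:21993640-21993889 on the plus strand and the IRS2 window at chr8:11008930-11009179 on the minus strand. SGK1 had further windows at other start sites, which held neither match.
SGK1: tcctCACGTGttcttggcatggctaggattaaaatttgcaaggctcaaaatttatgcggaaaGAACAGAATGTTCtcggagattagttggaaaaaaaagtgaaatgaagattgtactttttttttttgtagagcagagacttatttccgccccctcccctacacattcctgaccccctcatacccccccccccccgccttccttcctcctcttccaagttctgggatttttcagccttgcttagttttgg
IRS2: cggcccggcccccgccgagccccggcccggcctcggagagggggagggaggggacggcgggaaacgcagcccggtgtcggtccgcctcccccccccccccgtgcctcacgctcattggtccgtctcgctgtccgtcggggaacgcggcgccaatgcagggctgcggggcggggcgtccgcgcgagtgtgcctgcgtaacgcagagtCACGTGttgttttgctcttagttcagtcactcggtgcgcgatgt
The E-box started at position -246 in the SGK1 window and at -44 in IRS2, counted from the start site of the window shown. The glucocorticoid response element started at -188 in the same SGK1 window. The glucocorticoid response element was found in 1 of the 43 windows, against 0.387% of all 32851 windows. The E-box was found in 4, those of IRS1, IRS2, RHEB and SGK1, against 6.02% of all windows. Other motifs were the FOXO site GTAAACA in AKT1 and PIK3CG (3.17% of all windows), the ETS site CCGGAAGT in MTOR, PIK3CA and TSC2 (2.88%), the C/EBP-ATF element TGATGNAA in AKT2 and PIK3CD (3.45%), the AP-1 site TGANTCA in PIK3CA (6.75%), and the cAMP response element TGACGTCA in none of them (1.55%). A match of letters is a description of the sequence alone.

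In the tumours the kinase AKT1 had the highest level of the 30 genes, with a median of 78.6 TPM over the 15 libraries. It was followed by DDIT4 at 53.6 TPM, FOXO3 at 48.1 TPM, IRS2 at 43.8 TPM, EIF4EBP1 at 37.3 TPM and PIK3R2 at 35.6 TPM. Each of these genes overlapped in range with the next in this order. INPP4B, a phosphatase that removes a phosphate from PI3K lipids, had the lowest median, 2.29 TPM.

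The first comparison set the tumours against tissue without the Braf mutation, with the Tert allele fitted beside the mutation over all 18 libraries. Every library with the mutation was a tumour and every library without it was a pool, and these cannot be told apart. Each pool was 1 library, so p-values here rest mainly on the spread between tumours. The fit also takes 1 difference for all Tert alleles. For genes such as IRS1 and RPTOR, whose differences from the pools ran opposite ways between alleles, it averages over them. The stress-induced mTOR inhibitor DDIT4, the translational repressor EIF4EBP1 and the PI3K regulatory subunit PIK3R2 were higher with the mutation. IRS2, the regulatory subunits PIK3R1 and PIK3R3, AKT2, MTOR, FOXO3 and SGK1 were lower. Of the 23 genes tested, 3 were higher where 15.4% of all genes tested were, and 7 were lower where 10% of all genes tested were, so the higher share was near the background. The median difference was -0.29 over the 23 genes and 0.07 over all genes tested. PIK3R3 counts among the 7 although it had to differ, because it passed the filter through the 3 pools and 1 Tert-123 tumour.

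IRS2, an adaptor that couples insulin and IGF1 receptors to PI3K, was at 40.1, 46.8, 51.9 and 48.5 TPM in the Braf tumours, at 41.0 to 67.8 TPM (median 45.7) in the Tert-123 tumours and at 43.8, 22.01, 42.1 and 26.7 TPM in the K5-Tert tumours. The K5-Tert, Tert-123 and wild-type pools held 167, 72.0 and 96.5 TPM. Every pool was above every tumour, and IRS2 was lower by a log2 difference of -1.29 ± 0.27 (SE, adjusted p = 0.000996). Its paralog IRS1 was not called in this comparison (log2 0.56 ± 0.42, adjusted p = 0.357), with pools at 7.84, 3.04 and 3.91 TPM inside the tumour range of 2.09 to 16.6 TPM. Without the K5-Tert pool IRS1 was called, at a log2 difference of 1.32 (adjusted p = 0.0189). IRS1 had passed the filter through 5 Braf and Tert-123 tumours and no pool, so this call is given as a description. A gene that overlaps IRS2 reached 7.88 TPM, and how the counting treated strand is not given in the sources used here.

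The regulatory subunits of PI3K hold the catalytic subunit and bind phosphorylated tyrosines, and they moved in opposite directions. PIK3R1, which encodes p85 alpha and its shorter forms, was at 20.4, 22.2, 26.2 and 24.0 TPM in the Braf tumours, at 20.6 to 32.2 TPM (median 25.3) in the Tert-123 tumours and at 28.8, 8.07, 28.0 and 7.62 TPM in the K5-Tert tumours. The pools held 56.1, 44.1 and 51.0 TPM, above every tumour, and the log2 difference was -1.23 ± 0.31 (adjusted p = 0.00526). PIK3R2, which encodes p85 beta, was at 36.5, 38.0, 37.5 and 33.6 TPM in the Braf tumours, at 33.7 to 46.5 TPM (median 35.6) in the Tert-123 tumours and at 37.6, 19.3, 29.3 and 21.1 TPM in the K5-Tert tumours. Its pools held 23.9, 19.6 and 17.7 TPM, below every Braf and Tert-123 tumour but not below K5-Tert tumours 2 and 4, and the log2 difference was 0.68 ± 0.22 (adjusted p = 0.0245). PIK3R3, which encodes p55 gamma, was at 1.55 to 10.4 TPM in the tumours and at 15.3, 14.96 and 14.7 TPM in the pools, with a log2 difference of -1.69 ± 0.41 (adjusted p = 0.00377). Since it passed the filter through the pools, its call and separate ranges are given as a description.

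The call of PIK3R1 was lost without the K5-Tert pool (log2 -0.94, adjusted p = 0.0555). That of PIK3R2 was lost without the Tert-123 pool (0.55, adjusted p = 0.156) and without the wild-type pool (0.53, adjusted p = 0.176). The catalytic subunit PIK3CA was at 4.32 to 17.4 TPM in the tumours and 5.43 to 9.53 TPM in the pools, and was not called (log2 0.48 ± 0.28, adjusted p = 0.222).

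Among the kinases, AKT2 fell and AKT1 did not pass the test. AKT2, the AKT form tied most closely to insulin action, was at 18.1, 19.4, 24.9 and 19.9 TPM in the Braf tumours, at 18.9 to 27.8 TPM (median 20.7) in the Tert-123 tumours and at 23.3, 13.8, 20.2 and 14.5 TPM in the K5-Tert tumours. The pools held 47.3, 31.4 and 38.5 TPM, all above every tumour, and the log2 difference was -0.91 ± 0.21 (adjusted p = 0.00258). AKT1 was at 49.3 to 116 TPM in the tumours and at 82.8, 53.9 and 54.3 TPM in the pools (log2 0.29 ± 0.24, adjusted p = 0.419). PDPK1, the kinase that phosphorylates AKT, overlapped between tumours and pools (log2 -0.33 ± 0.30, adjusted p = 0.458).

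MTOR, the catalytic subunit of both mTOR complexes, was at 15.8, 19.4, 21.6 and 16.4 TPM in the Braf tumours, at 15.4 to 25.0 TPM (median 17.0) in the Tert-123 tumours and at 16.2, 5.64, 11.8 and 6.15 TPM in the K5-Tert tumours. The pools held 39.2, 20.6 and 25.6 TPM, and the Tert-123 pool lay within the tumour range. The log2 difference was -0.87 ± 0.30 (adjusted p = 0.0326), and it was -0.34 (adjusted p = 0.402) without the K5-Tert pool. RPTOR and RICTOR, which define mTOR complex 1 and mTOR complex 2, were not called, with log2 differences of -0.14 ± 0.28 and -0.05 ± 0.30. The same held for TSC2, which restrains RHEB, and for RHEB itself, with log2 differences of 0.05 ± 0.27 and -0.28 ± 0.26. The levels of TSC2 are uncertain because the gene overlaps PKD1, which reached 18.3 TPM.

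DDIT4, also known as REDD1, which acts through the TSC complex to restrain mTOR complex 1, was at 51.6, 45.3, 70.2 and 45.1 TPM in the Braf tumours and at 43.2 to 90.8 TPM (median 58.0) in the Tert-123 tumours. It was at 53.6, 30.4, 37.2 and 35.1 TPM in the K5-Tert tumours and at 15.3, 16.5 and 17.8 TPM in the pools. All 15 tumours were above all 3 pools, and the log2 difference was 1.56 ± 0.24 (adjusted p = 3.12e-05). EIF4EBP1, which binds eIF4E until mTOR complex 1 phosphorylates it, was at 28.2, 46.0, 37.3 and 43.3 TPM in the Braf tumours, at 23.7 to 50.05 TPM (median 37.1) in the Tert-123 tumours and at 41.4, 26.99, 39.3 and 30.7 TPM in the K5-Tert tumours. Its pools held 10.5, 8.58 and 18.5 TPM, again below all tumours, and the log2 difference was 1.53 ± 0.24 (adjusted p = 4.54e-05). The paralog EIF4EBP2 was at 22.9, 20.9 and 21.4 TPM in the pools, within the tumour range of 5.78 to 32.6 TPM, and was not called (log2 -0.29 ± 0.28).

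FOXO3, a transcription factor that AKT and SGK1 keep out of the nucleus, was at 48.4, 49.8, 49.2 and 47.6 TPM in the Braf tumours, at 39.2 to 55.4 TPM (median 48.1) in the Tert-123 tumours and at 58.0, 16.4, 38.6 and 23.9 TPM in the K5-Tert tumours. The pools held 123.4, 52.6 and 81.9 TPM, and the Tert-123 pool lay within the tumour range. The log2 difference was -0.93 ± 0.30 (adjusted p = 0.0239), which became -0.44 (adjusted p = 0.301) without the K5-Tert pool and -1.02 (adjusted p = 0.0587) without the wild-type pool. FOXO1 was not called (log2 -0.11 ± 0.28, adjusted p = 0.812).

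SGK1, a kinase related to AKT that mTOR complex 2 activates and glucocorticoids induce, was at 7.29, 7.86, 6.71 and 8.88 TPM in the Braf tumours, at 3.84 to 32.2 TPM (median 8.79) in the Tert-123 tumours and at 11.9, 7.27, 24.2 and 8.03 TPM in the K5-Tert tumours. The pools held 32.3, 62.5 and 28.4 TPM, and Tert-123 tumour 4, at 32.2 TPM, lay among them. The log2 difference, -1.93 ± 0.40 (adjusted p = 0.000822), was the lowest of the 23 genes. It remained called in each of the 18 fits that left out 1 library.

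**Figure D1:**
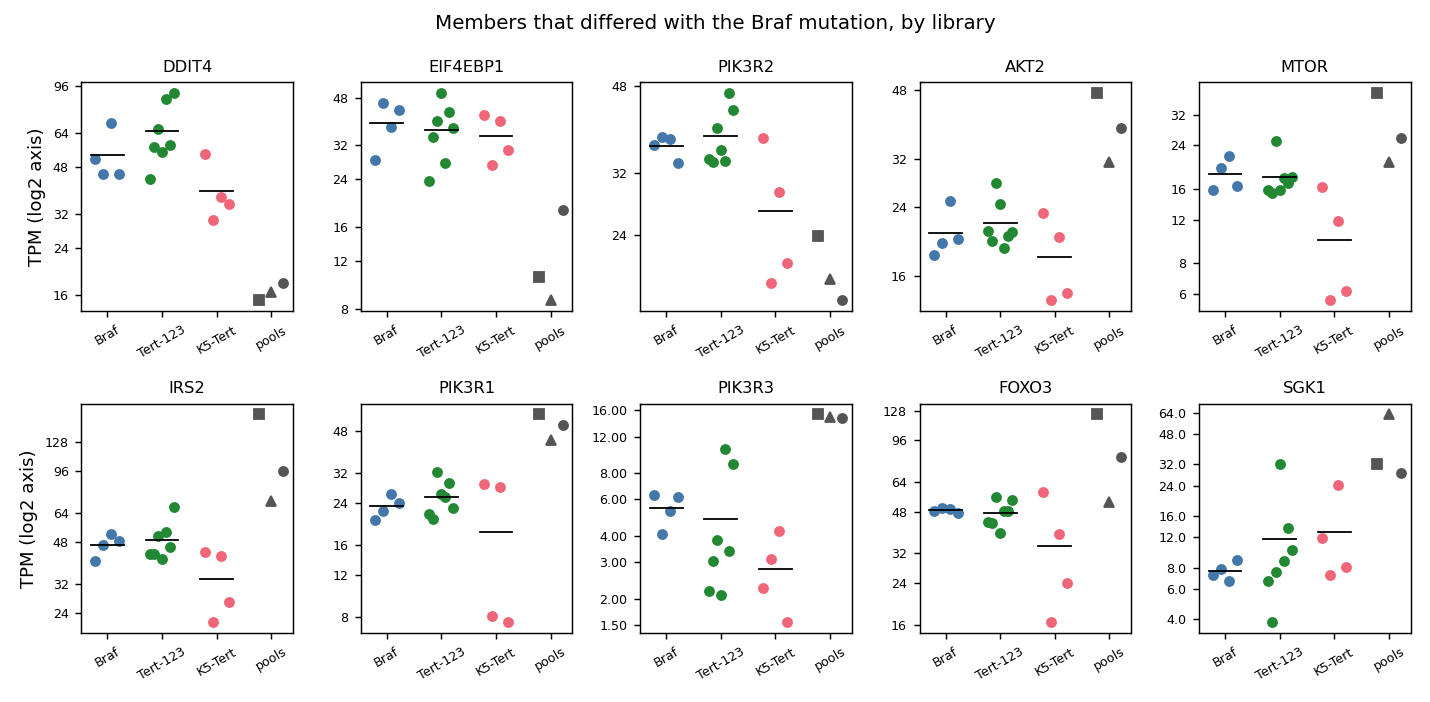
TPM on a log2 axis of the 10 genes called with the Braf mutation, by library, for the tumours of 4 Braf, 7 Tert-123 and 4 K5-Tert libraries (circles, with a line at each group's mean) and in the pools of K5-Tert (square), Tert-123 (triangle) and wild-type (circle) mice. DDIT4 and EIF4EBP1 are higher in all 15 tumours than in all 3 pools, and IRS2, PIK3R1, PIK3R3 and AKT2 are lower in all of them.

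The ranges of tumours and pools did not overlap for these 6 genes, 2 above the pools against 5.71% of all genes tested and 4 below them against 5.69%. PIK3R3 is 1 of the 4 and 1 of the 10 calls, although the filter kept it through the 3 pools and 1 Tert-123 tumour. All 10 calls were also made under each of 4 other scalings of the libraries, as were 773 of the 1205 genes called higher and 773 of the 786 called lower. With scaling factors of the TMM type, which set the libraries to the bulk of their genes, 24.8% of all genes tested were higher and 16.4% lower. AKT1 (log2 0.35, adjusted p = 0.0364) and PIK3CA were then called higher as well, which made 5 higher and 7 lower among the 23 genes. PIK3CA had passed the filter through 10 tumours and no pool, so its call is given as a description.

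Markers of other cell types differed along with the mutation. Of the markers tested, 7 of 10 for leukocytes were higher and all 5 for endothelial cells, both for C cells and 5 of 8 for thyrocytes were lower in the tumours. Summed leukocyte markers were 248 to 5857 TPM in the tumours and 64.2 to 482 TPM in the pools, and summed endothelial markers 19.1 to 146 TPM and 115 to 1032 TPM. C cell markers summed to 1.45 to 33.1 TPM in the tumours and 243 to 2065 TPM in the pools, and fibroblast markers to 89.0 to 2379 TPM and 33.4 to 327 TPM. No marker was listed at 0 in every library. In bulk libraries fewer cells of a type and less RNA per cell cannot be told apart, and the part of these markers in the differences above was not tested.

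Ratios of the TPM of related genes within a library do not depend on how the library was scaled. Those of (TPM + 1), shown in the figure, do depend on it at low levels. In 4 of 10 pairs all tumours were apart from all pools. The pairs were chosen with results known, and no share over other pairs of genes was computed. A pair can come apart through 1 of its genes, and PIK3R1, AKT2, EIF4EBP1 and IRS2 were already apart alone. PIK3R1 was 0.361 to 0.956 times PIK3R2 in the tumours and 2.25 to 2.88 times PIK3R2 in the pools, so the more abundant p85 subunit was not the same in them. AKT1 was 2.87 to 5.69 times AKT2 in the tumours and 1.41 to 1.75 times AKT2 in the pools. EIF4EBP1 was 1.14 to 4.67 times EIF4EBP2 in the tumours and 0.412 to 0.864 times in the pools, which also reversed the order of the pair. IRS1 was 0.0784 to 0.342 times IRS2 in the tumours and 0.0405 to 0.0470 times in the pools, and IRS2 was the higher of the pair in every library. The other 6 pairs, among them RPTOR with RICTOR and TSC1 with TSC2, overlapped between tumours and pools.

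**Figure D2:**
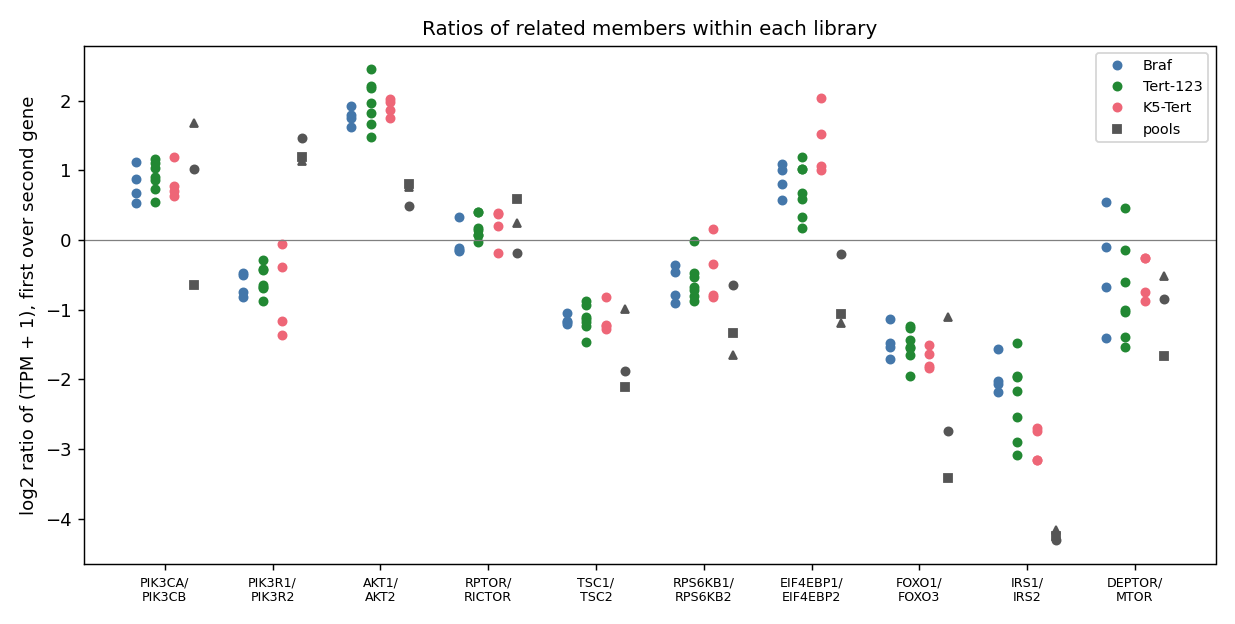
log2 ratio of (TPM + 1) of the first over the second gene of 10 pairs in each library, by tumour group and for the 3 pools (square K5-Tert, triangle Tert-123, circle wild-type). For PIK3R1/PIK3R2 the tumours lie between -1.36 and -0.06 and the pools between 1.13 and 1.47, and AKT1/AKT2, EIF4EBP1/EIF4EBP2 and IRS1/IRS2 are likewise apart.

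Genes of the same pathway outside the 30 were taken from fixed lists, whose counts stand beside 15.4% of all genes tested higher and 10% lower. Of 18 other PI3K pathway genes tested, 2 were higher with the mutation, IGF2R (log2 1.39 ± 0.29, adjusted p = 0.000846) and the adaptor SHC1 (1.06 ± 0.22), and 3 were lower. The 3 were PIK3IP1, a PI3K inhibitor (log2 -1.31 ± 0.28), the receptor adaptor GRB10 (-2.02 ± 0.55) and the AKT phosphatase PHLPP1 (-1.17 ± 0.33). Of 25 other mTOR complex and nutrient sensing genes, AKT1S1, a subunit that inhibits mTOR complex 1, was higher (log2 1.33 ± 0.26). RRAGD, SESN2 and SESN1 were lower, at -1.30, -0.93 and -0.90. Of 15 other effectors, NDRG1 (log2 1.26), BAD (0.88) and EIF4B (0.63) were higher and PDCD4 (-0.89) and TBC1D1 (-1.07) lower.

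3 lists held genes that lie downstream of the pathway or share an inducer with a member. Of 15 FOXO targets tested, CDKN1B was higher (log2 0.60) and 5 were lower, PDK4 (-2.36), BNIP3 (-1.58), IRS2 itself, PIK3IP1 and SOD2 (-0.69). A list of ATF4 and genes that it induces downstream of mTOR complex 1 had 7 genes tested. TRIB3 (log2 2.10), PSAT1 (1.53) and SHMT2 (0.64) were higher, and ATF4 itself (-1.25) and SESN2 were lower. Of 9 glucocorticoid-inducible genes, 0 were higher and 7 lower, with a list median of -1.64 beside 0.07 for all genes tested. They included DUSP1, at 14.8 to 126 TPM in the tumours and 213 to 386 TPM in the pools (log2 -2.79 ± 0.36, adjusted p = 3.82e-06), KLF9 (-2.26 ± 0.29), MT1 (-1.75 ± 0.23), ERRFI1 (-1.70 ± 0.26), MT2 (-1.64 ± 0.32) and PER1 (-1.16 ± 0.26).

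Between Tert-123 and Braf tumours, no member and no other gene was called. By limma the share of all genes tested was 0.0% in either direction as deposited and 0.0% with TMM-type factors, the smallest adjusted p was 0.9997, and 51 of 7825 genes had an unadjusted p under 0.05, none of them a member. The members' differences ran from -0.38 to 0.31 with a median of -0.04, beside a median of 0 for all genes tested. The 5 members with the smallest p were DDIT4 (log2 0.27 ± 0.23), AKT1 (0.27 ± 0.23), RICTOR (-0.30 ± 0.27), DEPTOR (-0.38 ± 0.35) and IRS1 (-0.28 ± 0.33). DEPTOR, an inhibitor of mTOR, was at 14.6, 6.73, 13.1 and 24.3 TPM in the Braf tumours and at 5.86 to 25.0 TPM (median 7.97) in the Tert-123 tumours, a span that held all 4 Braf tumours. AKT1 was at 63.8, 77.1, 78.6 and 71.9 TPM in the Braf tumours and at 60.1 to 116 TPM (median 98.1) in the Tert-123 tumours. The ranges of all 23 genes overlapped between these groups.

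Between K5-Tert and Braf tumours, the S6 kinase gene RPS6KB2 and the adaptor gene IRS1 were lower beyond the range of the Braf tumours. Neither gene reached 10 TPM in any K5-Tert tumour, so both passed the filter through the groups in which they were high, and their calls and separate ranges are given as a description. With no filter, over 22693 genes, the adjusted p was 0.0221 for RPS6KB2 and 0.0289 for IRS1. As deposited, 7 members were called lower, IRS1, MTOR, RPTOR, RICTOR, RPS6KB2, GSK3B and FOXO1, and 0 higher. This stood beside 21.2% of all genes tested called lower and 0.626% called higher, and the median difference was -0.65 over the 23 genes and -0.47 over all genes. With TMM-type factors, which moved the median of all genes to 0.02 and that of the members to -0.14, 7.87% of all genes were lower and 5.96% higher. RPS6KB2 (log2 -0.81, adjusted p = 0.0133) and IRS1 (-1.08, adjusted p = 0.0301) were then called lower and AKT1 higher (0.44, adjusted p = 0.0477), where AKT1 had been at -0.08 ± 0.26 as deposited.

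RPS6KB2, an S6 kinase that mTOR complex 1 activates, was at 12.8, 12.7, 15.2 and 12.3 TPM in the Braf tumours, at 10.3 to 15.3 TPM (median 11.4) in the Tert-123 tumours and at 9.73, 2.55, 5.38 and 4.32 TPM in the K5-Tert tumours. Every K5-Tert tumour was below every other tumour, and the log2 difference from the Braf tumours was -1.24 ± 0.28 (adjusted p = 0.0087). The K5-Tert, Tert-123 and wild-type pools held 24.1, 9.18 and 8.83 TPM, so the K5-Tert pool was the highest of all 18 libraries while the K5-Tert tumours held the 4 lowest tumour values. RPS6KB2 passed the filter through the 11 Braf and Tert-123 tumours and the K5-Tert pool. It was called lower under all 5 scalings, as 328 of the 1662 genes called lower were. It was not called with XIST as a covariate (log2 -1.29, adjusted p = 0.053), nor without K5-Tert tumours 2 and 4 (-0.78, adjusted p = 0.155).

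IRS1, the adaptor for insulin and IGF1 receptors, was at 8.88, 9.53, 12.0 and 15.8 TPM in the Braf tumours, at 4.21 to 16.6 TPM (median 8.78) in the Tert-123 tumours and at 5.72, 2.55, 3.81 and 2.09 TPM in the K5-Tert tumours. The K5-Tert tumours were all below the Braf tumours and overlapped the Tert-123 tumours. The log2 difference was -1.50 ± 0.37 (adjusted p = 0.0125), and IRS1 had passed the filter through 5 Braf and Tert-123 tumours. It remained called in the 15 fits that each left out 1 tumour, but not without K5-Tert tumours 2 and 4 together (-1.11, adjusted p = 0.232) or with the trend on transcript length removed (-0.73, adjusted p = 0.168). The log2 ratio of (TPM + 1) of IRS1 to IRS2 within a library was -2.74, -2.70, -3.16 and -3.16 in the K5-Tert tumours, below the range of -2.18 to -1.56 in the Braf tumours. With 5 TPM added in place of 1, K5-Tert tumour 2 was at -1.84 and Braf tumour 2 at -1.83. Groups that do not overlap, with K5-Tert lower, were found for 16.0% of all genes tested and for 2 members, RPS6KB2 and IRS1.

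The other 5 called genes overlapped between the groups, because K5-Tert tumour 1 lay among the Braf tumours or above their lowest value. MTOR differed by -0.92 ± 0.27 (adjusted p = 0.0253) between the values already given. RPTOR was at 14.7, 17.7, 17.9 and 15.8 TPM in the Braf tumours and at 14.9, 6.01, 10.2 and 6.85 TPM in the K5-Tert tumours (log2 -0.81 ± 0.25, adjusted p = 0.0272). RICTOR was at 11.5, 20.0, 19.8 and 17.3 TPM in the Braf tumours and at 17.1, 4.40, 7.50 and 5.83 TPM in the K5-Tert tumours (log2 -1.03 ± 0.31, adjusted p = 0.0265). Both subunits that define the mTOR complexes thus had low values in the same 3 libraries, K5-Tert tumours 2, 3 and 4.

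GSK3B, a kinase that AKT inhibits, was at 13.3, 17.7, 18.8 and 15.3 TPM in the Braf tumours and at 18.5, 2.91, 9.20 and 5.73 TPM in the K5-Tert tumours (log2 -1.01 ± 0.34, adjusted p = 0.0413). FOXO1 was at 14.1, 22.1, 17.0 and 15.7 TPM in the Braf tumours and at 15.8, 5.12, 11.8 and 5.95 TPM in the K5-Tert tumours (log2 -0.88 ± 0.29, adjusted p = 0.0379). The calls of MTOR, RPTOR, RICTOR, GSK3B and FOXO1 were each lost without K5-Tert tumour 2, without K5-Tert tumour 4 and without Braf tumour 2, 3 or 4, with adjusted p from 0.0509 to 0.176, and none of the 5 was called with TMM-type factors. That of GSK3B was lost also without Tert-123 tumour 5 (adjusted p = 0.0512) or 6 (0.0515). Without K5-Tert tumour 1, 16 members were called lower, and so were 3607 of all 7825 genes.

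**Figure D3:**
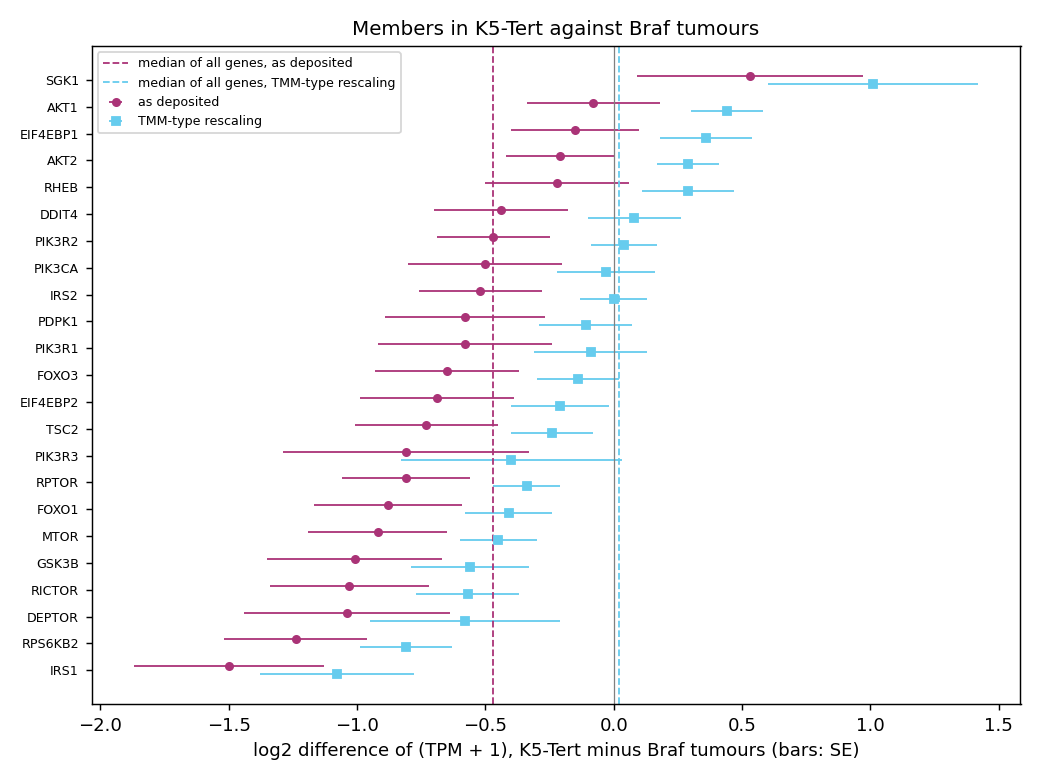
log2 difference of (TPM + 1) between K5-Tert and Braf tumours for the 23 genes tested, as deposited (circles) and after TMM-type rescaling (squares), with bars of 1 SE and dashed lines at the median of all genes, -0.47 and 0.02. IRS1 and RPS6KB2 are lowest on either scale, and AKT1 lies at -0.08 as deposited and at 0.44 after rescaling.

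The members shifted with the bulk of genes in the same libraries. In K5-Tert tumours 2, 3 and 4 the median of the 23 genes lay -1.07, -0.21 and -0.81 from the mean of the tumours on the log2 scale, and that of all genes tested -0.80, -0.15 and -0.63. In K5-Tert tumour 1 these medians were 0.18 and 0.16. Deviations of all genes ranked against transcript length with rho of -0.53, -0.23 and -0.41 in tumours 2, 3 and 4, so longer transcripts were lower there, and 0.27 in tumour 1. The low MALAT1 fell in the same 3 libraries. Of the cell type markers tested, 3 of 8 for thyrocytes were lower and 3 of 6 for pericytes and smooth muscle higher in K5-Tert than in Braf tumours, and as many in the comparison with Tert-123 tumours. The pericyte and smooth muscle markers summed to 37.0 to 195 TPM in the K5-Tert tumours, 23.2 to 46.1 TPM in the Braf tumours and 19.4 to 105 TPM in the Tert-123 tumours, and the thyrocyte markers to 580 to 994, 896 to 1173 and 571 to 1854 TPM. Their part in the members' differences was not tested. In the sample names the K5-Tert tumours carry higher numbers than all other tumours, and a difference in handling, if there was any, cannot be told apart from the K5-Tert allele.

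**Figure D4:**
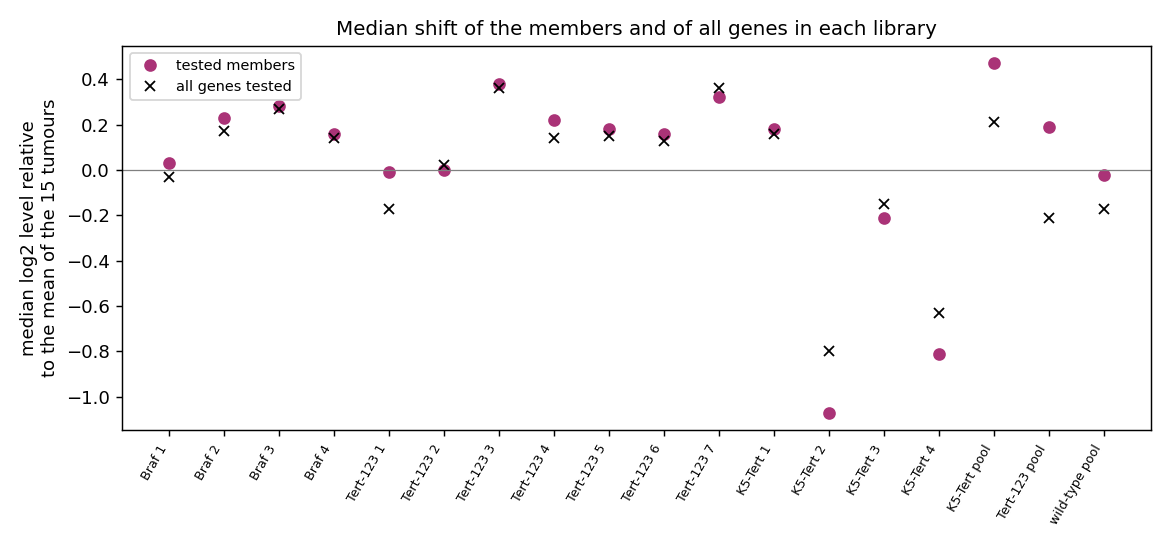
Median deviation of log2(TPM + 1) from the mean of the 15 tumours in each library, for the 23 tested members (circles) and all 7825 genes tested (crosses). K5-Tert tumours 2 and 4 lie lowest for the members, at -1.07 and -0.81, and for all genes, at -0.80 and -0.63.

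K5-Tert tumours were also set against Tert-123 tumours, a comparison that uses the same K5-Tert libraries as the one before. 11 members were lower and 0 higher as deposited, beside 28.5% of all genes tested lower and 0.805% higher. The 11 were RPS6KB2 (log2 -1.17 ± 0.25, adjusted p = 0.00514), IRS1 (-1.21 ± 0.33), MTOR (-0.88 ± 0.24), GSK3B (-0.96 ± 0.30), FOXO1 (-0.78 ± 0.26), RPTOR (-0.72 ± 0.22), TSC2 (-0.80 ± 0.25), DDIT4 (-0.71 ± 0.23), EIF4EBP2 (-0.74 ± 0.26), IRS2 (-0.57 ± 0.21) and PIK3R2 (-0.53 ± 0.20). With TMM-type factors 7.83% of all genes were lower and 6.80% higher, and 2 members were lower, RPS6KB2 (-0.73, adjusted p = 0.0105) and MTOR (-0.40, adjusted p = 0.0490). RPS6KB2 had K5-Tert values below all 7 Tert-123 tumours, as 5.19% of all genes did, and it had passed the filter with all 7 Tert-123 tumours and no K5-Tert tumour at 10 TPM or more.

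TSC2 was at 16.9 to 29.6 TPM (median 23.5) in the Tert-123 tumours and at 22.5, 8.07, 13.7 and 8.57 TPM in the K5-Tert tumours (adjusted p = 0.0235). EIF4EBP2 was at 15.4 to 32.6 TPM (median 21.2) and at 20.3, 5.78, 18.2 and 10.1 TPM (adjusted p = 0.0416). K5-Tert tumour 1 lay within the Tert-123 range for both genes. Without K5-Tert tumour 2 the calls of MTOR, FOXO1, RPTOR, GSK3B, EIF4EBP2, TSC2, IRS1, PIK3R2, DDIT4 and IRS2 were lost, and likewise without K5-Tert tumour 4, with adjusted p from 0.0607 to 0.234. Those of EIF4EBP2, PIK3R2 and IRS2 were also lost without any 1 of the Braf tumours and without Tert-123 tumour 2, 3, 5, 6 or 7, that of PIK3R2 without Tert-123 tumour 4 or K5-Tert tumour 3 as well, FOXO1 without Tert-123 tumour 3 (adjusted p = 0.0620) and DDIT4 without Tert-123 tumour 5 (adjusted p = 0.0559). Without K5-Tert tumour 1, 16 members were called lower, and so were 4048 of all 7825 genes. RPS6KB2 remained called in all these fits, but not without both libraries (log2 -0.71, adjusted p = 0.188).

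In the fixed pathway lists the K5-Tert differences also moved with the scaling, and the counts against Braf tumours stand beside 21.2% of all genes tested lower, a share they lie near or below. Against Braf tumours, 4 of 18 other PI3K pathway genes were lower as deposited, IGF1R (log2 -1.33 ± 0.34, adjusted p = 0.0141), the receptor that engages IRS1, INPP5E (-0.84), PIK3C3 (-0.76) and INSR (-0.69), and 0 were called with TMM-type factors. Against Tert-123 tumours IGF1R was lower on either scale (log2 -1.31 as deposited and -0.80 with TMM-type factors, adjusted p = 0.0433). Of 25 mTOR complex and nutrient sensing genes, 4 were lower than in Braf tumours as deposited. They included FLCN, the folliculin gene, whose product acts on the Rag GTPases (log2 -0.91 ± 0.26, adjusted p = 0.0226), which was not called with TMM-type factors (-0.43, adjusted p = 0.215). RPS6, the ribosomal protein that S6 kinases phosphorylate, was higher than in Braf tumours on either scale (log2 0.60 ± 0.21 as deposited, adjusted p = 0.0456, and 1.13 with TMM-type factors).

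7 members did not pass the filter and were not tested in the main fits: PIK3CB, PIK3CD, PIK3CG, MLST8, TSC1, RPS6KB1 and INPP4B. With no filter, over 22693 genes, limma called RPS6KB1 lower in K5-Tert than in Braf tumours (log2 -1.06, adjusted p = 0.0315). It was also lower than in Tert-123 tumours (-1.03, adjusted p = 0.0189), as was TSC1 (-0.81, adjusted p = 0.0433). PIK3CG was then higher with the Braf mutation (1.5, adjusted p = 0.00523). Of all genes, 1389 and 2086 were lower in these K5-Tert comparisons and 1788 higher with the mutation. RPS6KB1, the other S6 kinase, was at 7.02, 9.64, 7.60 and 8.67 TPM in the Braf tumours, at 5.69 to 11.2 TPM (median 8.15) in the Tert-123 tumours and at 5.08, 2.98, 4.03 and 2.08 TPM in the K5-Tert tumours. As for RPS6KB2, every K5-Tert tumour was below all other tumours. Of all genes tested, 16.0% had K5-Tert values below all Braf tumours and 5.19% below all Tert-123 tumours, so this is given as a description. These levels are uncertain because RPS6KB1 overlaps RNFT1, which reached 8.95 TPM. TSC1, the partner of TSC2, was at 8.67, 2.83, 5.31 and 4.43 TPM in the K5-Tert tumours and at 7.49 to 13.3 TPM in the other tumours, so K5-Tert tumour 1 lay among them. PIK3CB, a broadly expressed catalytic subunit, was at 2.26 to 9.30 TPM in the tumours and MLST8, a subunit of both mTOR complexes, at 4.37 to 10.04 TPM. INPP4B was at 0.565 to 4.93 TPM.

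PIK3CD and PIK3CG, the catalytic subunits that are enriched in leukocytes, were highest in the libraries richest in leukocyte markers. PIK3CD was at 15.7 TPM in Tert-123 tumour 4 and at 10.6 TPM in K5-Tert tumour 3, against 1.35 to 9.61 TPM in the other tumours and 2.29, 3.35 and 2.45 TPM in the pools. PIK3CG was at 8.26 and 7.09 TPM in the same tumours, against 1.31 to 5.61 TPM in the others and 0.553, 1.57 and 0.577 TPM in the pools. These tumours had summed leukocyte markers of 5857 and 4047 TPM, where the other 13 had 248 to 2674 TPM. Summed fibroblast markers were highest in the same tumours, at 2379 and 1676 TPM against 89.0 to 883 TPM in the other tumours, and pericyte and smooth muscle markers were at 105 and 195 TPM against 19.4 to 108 TPM. SGK1 was highest among tumours in the same libraries, at 32.2 and 24.2 TPM. In the pools SGK1 was high with summed leukocyte markers of 77.6, 482 and 64.2 TPM. LYZ2 made up 4275 and 2607 TPM of the sums in Tert-123 tumour 4 and K5-Tert tumour 3. The T cell markers CD3G and CD3E went the other way. They were at 96.2 and 42.0 TPM in the Tert-123 pool and at most 7.92 and 3.56 TPM in the tumours. That pool also held the highest summed endothelial and C cell markers, 1032 and 2065 TPM. The part of these cell types in the levels of the genes was not tested.

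**Figure D5:**
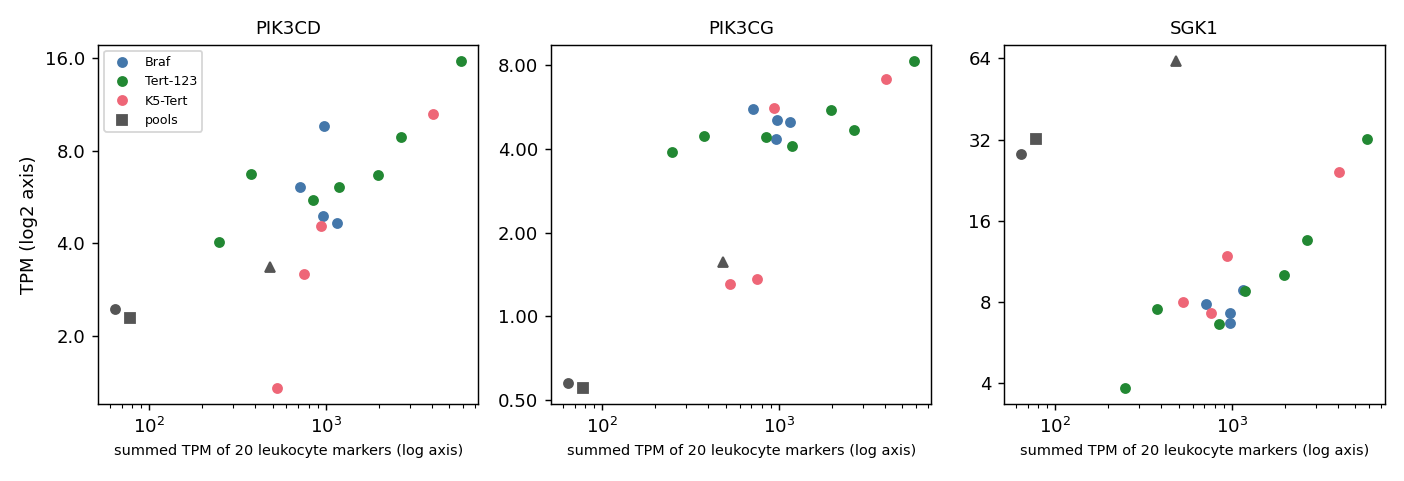
TPM of PIK3CD, PIK3CG and SGK1 (log2 axis) against the summed TPM of 20 leukocyte markers (log axis) in the 15 tumours and the pools of K5-Tert (square), Tert-123 (triangle) and wild-type (circle) mice. The tumours with 5857 and 4047 TPM of leukocyte markers hold the highest tumour values of all 3 genes, and the pools lie high for SGK1 and low for PIK3CD and PIK3CG.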

How the data were processed

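The authors deposited 1 table for the series, titled as normalized counts, with 18 columns of values for 23652 gene symbols. Its deposited values were treated as TPM because every column summed to 1000000 and because low values fell with transcript length (rho = -0.55 over 5327 genes); the labels do not name the unit, and no aligner, build, annotation or strand setting is given in the sources used here. No counts were used, so depth is unknown. Left out were 26 entries with date names, which held at most 0.0455% of a library. RPPH1 held 43.7% to 68.8% of the TPM of a library.

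Groups came from the genotype labels, and replicate numbers only name libraries. Genes at 10 TPM or more in at least 4 libraries entered limma 3.58.1 under R 4.3.3 as log2(TPM + 1) (mean-variance trend, two-sided, Benjamini-Hochberg over 7825 genes). Tumour comparisons used the 15 tumours together, and the Braf mutation used 18 libraries with the Tert allele as an additive term. The fit was tested on simulated data. For K5-Tert against Braf tumours it found 26.5% of log2 changes of size 1 and 91.8% of those of size 2. The median was 0 and the highest count 14 false calls over 10 runs. For the Braf mutation it found 39.5% and 92.5%. These false calls do not cover a shift of most genes in single libraries, as in K5-Tert tumours 2 and 4, or a difference in tissue between tumours and pools. In the data 1662 genes were lower in K5-Tert than in Braf tumours, and 17 without K5-Tert tumours 2 and 4. The simulation therefore does not vouch for the 1662 calls.

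The members and lists were chosen with earlier results of these data known. Described in full were members called in any comparison or, where fewer than 5 were, the 5 with the smallest p, and up to 6 called genes of each other list. A gene that the rule names is not reported here but stays in the fits and counts. Alternatives were other pseudocounts, filters and scalings, an XIST covariate, fits of only the groups compared, library weights and leaving out libraries; 3 pairings of rescaling with left-out libraries were chosen after the data were seen. Promoter windows are RefSeq's for GRCm38.p6 and were used for sequence alone.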

Additional observations from a re-analysis of the deposited data

Results flagged for a closer look

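4 values lay far from the rest of their group, among 90 groups of 4 or 7 tumours examined, of which chance marks about 1 in 20. MTOR was at 25.02 TPM and RICTOR at 20.78 TPM in Tert-123 tumour 3, each the highest of the 7 Tert-123 tumours. EIF4EBP2 was at 18.64 TPM and INPP4B at 1.934 TPM in Braf tumour 1, each the lowest of the 4 Braf tumours.

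For 5 genes all tumours of a group lay on one side of the pool with the same Tert genotype and all tumours of another group on the other side of theirs. Each pool is 1 library, and these differences were not tested. The share of all genes tested with such opposite sides was not computed, so the count is not a result about the members. K5-Tert tumours 2 and 4 lay low for all genes tested, with medians of -0.80 and -0.63. RPS6KB2 was lower than its pool in the K5-Tert tumours (mean log2 -2.06) and higher in the Braf (0.53) and Tert-123 tumours (0.41), differences of -2.60 and -2.47. IRS1 was lower in the K5-Tert tumours (-1.03) and higher in the Braf and Tert-123 tumours (1.32 in each), differences of -2.35 and -2.34. RPTOR was lower in the K5-Tert tumours (-1.12) and higher in the Braf tumours (0.76), a difference of -1.88. FOXO1 was lower in the Tert-123 tumours (-0.57) and higher in the Braf tumours (0.53), a difference of -1.11. GSK3B was higher in the Tert-123 tumours (0.77) and lower in the Braf (-0.49) and K5-Tert tumours (-1.60), differences of 1.26 and -2.36.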

How the results depend on the processing

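The members called higher (3) and lower (7) with the Braf mutation ranged from 2 to 4 and from 4 to 7 when 1 library was left out. Of all genes tested, 768 to 1826 were higher and 469 to 901 lower in the same fits. The members were 1 higher and 2 lower with a filter at 50 TPM, which leaves 4 members and 1749 genes tested (439 higher and 189 lower). With TMM-type factors 5 were higher (1937 of all genes), among them PIK3CA, which had passed the filter through tumours alone. With library weights 8 were higher (3327). With the trend on transcript length removed and the Tert-123 pool left out, 5 were higher (1199), an alternative chosen after the data were seen. The 7 members lower in K5-Tert than in Braf tumours became 3 with no filter, 0 with a filter at 50 TPM, 2 with TMM-type factors (and 1 higher), 2 with quantile normalization, 1 with the length trend and mean removed, 1 with XIST as a covariate, 2 with only the groups compared and 17 with library weights, where 1389, 162, 616, 524, 406, 227, 477 and 4900 of all genes tested were lower, in that order (1662 as deposited). No filter left 30 members and 22693 genes tested, and the filter at 50 TPM left 4 members tested in every comparison. The 11 lower than in Tert-123 tumours became 1 with a filter at 50 TPM, 2 with TMM-type factors, 1 with quantile normalization, 4 after rescaling without RPPH1, 1 with the length trend and mean removed, 4 with XIST as a covariate, 3 with only the groups compared and 18 with library weights, where 241, 613, 510, 1633, 494, 1539, 1176 and 4681 of all genes tested were lower (2230 as deposited). Leaving out 1 tumour gave 2 to 16 against Braf tumours and 1 to 16 against Tert-123 tumours. Of all genes tested, 388 to 3607 and 525 to 4048 were lower in the same fits. Leaving out K5-Tert tumours 2 and 4 together gave 0 in each comparison, with 17 of all genes lower in each, and 0 again with TMM-type factors, with 79 and 76 of all genes lower, an alternative chosen after the data were seen. 2 called values changed sign against Tert-123 tumours: IRS2 was at 0.07 with the length trend and mean removed, and EIF4EBP2 at 0.01 with TMM-type factors and without K5-Tert tumours 2 and 4. The cause of these changes was not tested. Of 948 values of single members under these alternatives, 734 kept their direction and their side of the threshold and 212 kept their direction alone. No member was called between Tert-123 and Braf tumours under any alternative run. No paired analysis was possible because the replicate numbers only name the libraries in each group. Depth is unknown, so its limit on the low members could not be given.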
